A study of Mus musculus with 8 samples.

Results

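The miR-200 and miR-141 family is made from 5 hairpins in 2 genomic clusters, with miR-200a, miR-200b and miR-429 on chromosome 4 and miR-200c and miR-141 on chromosome 6. Its members were chosen by name, as entries of the miRNA class called miR-200a, miR-200b, miR-200c, miR-141 or miR-429, with or without the suffix 3p or 5p for the side of the hairpin that gives the mature strand. The rule itself uses no measured value, although earlier results of these data were known when the family was chosen. This gave 6 arms out of 576 mature miRNAs, 730 entries of the miRNA class and 20558 small RNAs listed: miR-200a-3p, miR-200b-3p, miR-200b-5p, miR-429-3p, miR-141-3p and miR-200c-3p. The other 4 arms of the 5 hairpins are not listed in the table, in which the lowest total over the mice is 9 counts, and no other entry carries the name of one of these hairpins.

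Testicular small RNA of adult C57Bl/6 males was sequenced, 1 library per mouse, to compare males raised on a Western-like diet (WD) with males on a standard diet (SD). The SD mice were M1N, M2N, TN1 and TN2, and the WD mice were M1W, M2W, M3W and M5W. The labels put the start of a high-fat diet at 4 weeks of age and the mating at 4 months, in a text attached to every mouse, which was read here as describing the WD mice; the methods of the study give a younger age for the start. Names of SD mice begin with M or with TN and those of WD mice with M throughout; what the letters mean is not given in the sources used here, and values are therefore also given for each pair of SD mice. In M1N, M2N, TN1 and TN2 the total counts were 3248708, 3253798, 3101032 and 2064562. In M1W, M2W, M3W and M5W they were 2931793, 2290920, 2159625 and 3092399. Levels are given in CPM, the usual scaling of a count to the total count of its library, here after correction by TMM factors (trimmed mean of M values), and ± marks the standard deviation over mice. A floor of 3 counts corresponded to 0.933 CPM in M5W and to 1.39 CPM in TN2, the lowest and the highest of the 8 mice.

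miRNAs of this family are abundant in epithelial cells, where they repress the transcription factors ZEB1 and ZEB2, and these factors in turn bind E-box motifs near the starts of both clusters and repress them. This mutual repression is best known from the passage of epithelial cells to a mesenchymal state. In the male reproductive tract the duct of the epididymis, which leads away from the testis, is lined by epithelium, whereas most cells of the testis itself are germ cells.

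A miRNA recognises its targets mainly through its seed, bases 2 to 8 of the mature strand, and the sequences are shown because the seeds divide the family in another way than the clusters do. All 6 arms were matched by name to RefSeq (GRCm38.p6), from which the sequences come, and capitals mark the seed. Seed AACACUG belongs to an arm of each cluster:
miR-200a-3p: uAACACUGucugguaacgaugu
miR-141-3p: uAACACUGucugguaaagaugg
Seed AAUACUG belongs to 3 arms, again from both clusters:
miR-200b-3p: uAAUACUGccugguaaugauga
miR-429-3p: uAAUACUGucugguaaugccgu
miR-200c-3p: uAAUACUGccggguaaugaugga
The arm from the other side of the Mir200b hairpin has the seed AUCUUAC:
miR-200b-5p: cAUCUUACugggcagcauugga
Both 3p seeds differ at base 4 of the strand (C4U from miR-200a-3p to miR-200b-3p, counted from 1 at the 5′ end).

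Of the 10 pairs of 3p arms, those with the fewest differences join the clusters. miR-200a-3p and miR-141-3p differ at 2 bases, C17A and U22G, and miR-200b-3p and miR-200c-3p at 2 of the 22 bases compared, U11G and A22G. The other pairs differ at 4 or 5. The authors allowed 2 mismatches in alignment, and how a read with several matches was counted is not given in the sources used here, so the split of reads between miR-200a-3p and miR-141-3p, and between miR-200b-3p and miR-200c-3p, is uncertain.

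In the NCBIM37 assembly (mm9) all 5 hairpins lie on the minus strand. The chromosome 4 cluster spans 1846 bases with Mir429 (chr4:155428014-155428096), Mir200a (chr4:155429005-155429094) and Mir200b (chr4:155429790-155429859). The GENCODE annotation places Mir429 inside an exon of Gm13648 and the other 2 hairpins in introns of that transcript, and all 3 also lie in an intron of Ttll10. The chromosome 6 cluster spans 477 bases with Mir141 (chr6:124667932-124668003) and Mir200c (chr6:124668340-124668408), both in an intron of Gm15884. miR-200a-3p was matched to chr4:155429020-155429041, miR-200b-3p to chr4:155429794-155429815, miR-200b-5p to chr4:155429830-155429851 and miR-429-3p to chr4:155428025-155428046. miR-141-3p was matched to chr6:124667935-124667956 and miR-200c-3p to chr6:124668342-124668364.

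The family was a small part of the testis library, and as counted most of its reads were assigned to chromosome 4. Over the 8 mice it took 1312 of 2285912 reads of the miRNA class (0.0574%), of which 1266 (96.5%) were from the chromosome 4 cluster and 46 (3.51%) from the chromosome 6 cluster, shares that rest on the uncertain split of reads between the clusters. By mean CPM miR-200a-3p ranked 177 among the 576 mature miRNAs, at 30.1 ± 10.4 CPM (n = 8). miR-200b-3p ranked 217 with 16.7 ± 6.84 CPM (n = 8) and miR-429-3p ranked 256 with 9.95 ± 5.48 CPM (n = 8), and the spreads of these neighbours in the order overlap. miR-200b-5p, miR-141-3p and miR-200c-3p followed with 2.11, 1.06 and 0.995 CPM, close to the floor of 3 counts. For comparison, miR-34c-5p, a germ cell miRNA, had 8033.5 CPM. A level per testis library does not separate the number of cells that make a miRNA from the amount in each, which cannot be told apart here.

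On the Western-like diet the chromosome 4 arms had higher mean levels than on the standard diet, without a call after adjustment. miR-200a-3p, the most abundant arm, had 12.3, 21.7, 27.1 and 31.5 CPM in M1N, M2N, TN1 and TN2, and 33.5, 48.2, 32.3 and 34.5 CPM in M1W, M2W, M3W and M5W. Every WD mouse lay above every SD mouse, but the gap between TN2 and M3W was narrow, and M1N was well below the other SD mice. The means were 23.2 ± 8.25 CPM in SD mice (n = 4) and 37.1 ± 7.46 CPM in WD mice (n = 4), with p = 0.0286 in the exact permutation test (two-sided), the smallest p that the 70 assignments of 8 mice allow. When the libraries were scaled by column totals alone, the groups overlapped, since TN2 had 32.9 CPM and M3W 32.4 CPM, and the exact permutation p became 0.0571. With TMM factors from the miRNA class alone it was 0.0857 (exact permutation test), and the groups overlapped again. With upper-quartile factors it was 0.0286 (exact permutation test), and the groups did not overlap, at up to 31.7 CPM in SD and from 32.7 CPM in WD mice. In the miRNA class, 23 of 418 entries tested (5.5%) had every WD mouse above every SD mouse.

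miR-200b-3p had 10.6, 15.6, 12.9 and 15.7 CPM in M1N, M2N, TN1 and TN2, and 13.8, 32.9, 14.7 and 17.1 CPM in M1W, M2W, M3W and M5W. M2W, in which the miRNA class took 12.7% of all counts against 9.23% to 10.7% in the other mice, stood well above the rest, and the remaining 3 WD mice lay among or just above the SD mice. The means of 13.7 ± 2.45 CPM in SD mice (n = 4) and 19.6 ± 8.94 CPM in WD mice (n = 4) differed by less than the spread between mice, with p = 0.2 in the two-sided exact permutation test.

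miR-429-3p, which shares its seed with miR-200b-3p, had 2.74, 4.78, 10.1 and 11.6 CPM in M1N, M2N, TN1 and TN2, and 12.8, 20.6, 7.37 and 9.64 CPM in M1W, M2W, M3W and M5W. The low values were those of M1N and M2N, whereas TN1 and TN2 lay within the range of the WD mice. The means were 7.3 ± 4.21 CPM in SD mice (n = 4) and 12.6 ± 5.78 CPM in WD mice (n = 4), with p = 0.2 in the exact permutation test (two-sided).

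**Figure D1:**
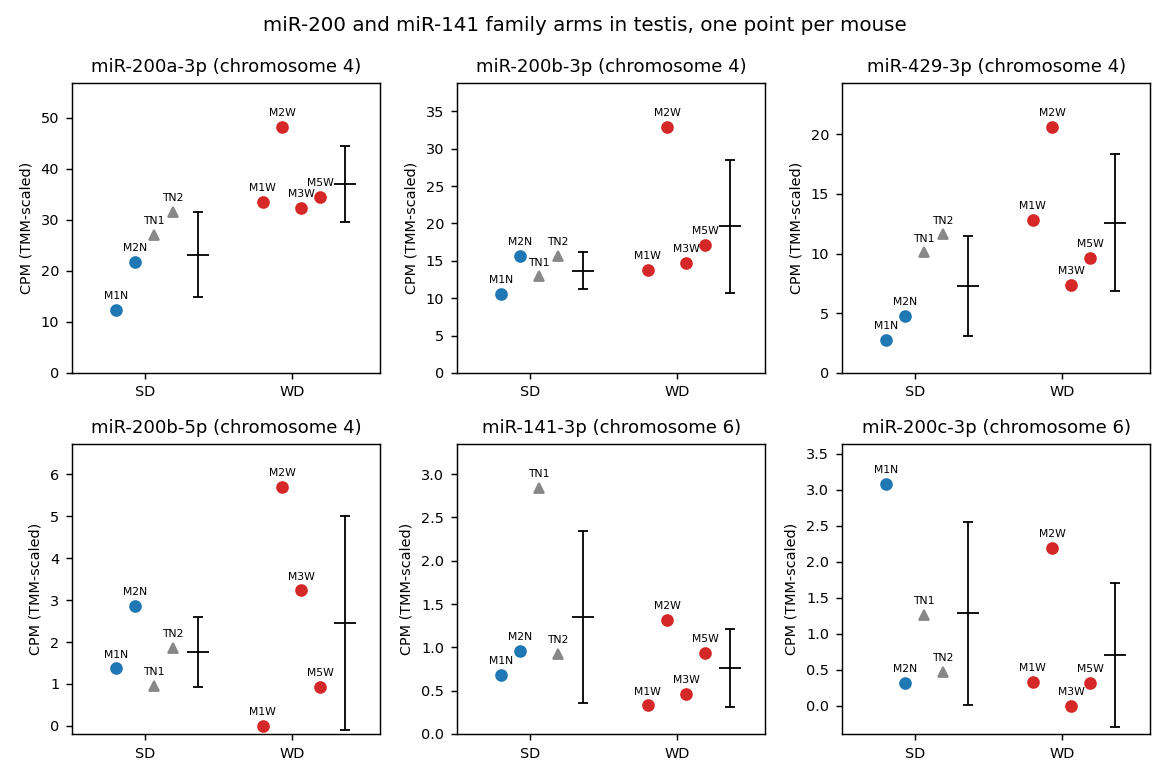
Level of each family arm in CPM (vertical axis, TMM-scaled, own scale in each panel) in SD and WD mice, 1 point per mouse, with triangles for TN1 and TN2 and circles for mice whose names begin with M; the bars give the mean and standard deviation of 4 mice. In miR-200a-3p the WD mice start at 32.3 CPM, just above TN2 at 31.5 CPM, and in miR-429-3p the lowest points are M1N and M2N.

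These 3 arms passed edgeR's filter on low counts and were tested together with all other small RNAs. The log2 fold changes of WD against SD were 0.69 (standard error 0.25) for miR-200a-3p, 0.51 (0.28) for miR-200b-3p and 0.81 (0.40) for miR-429-3p. Without M2W they were 0.54, 0.16 and 0.49. Adjusted over all 16955 small RNAs tested, the quasi-likelihood test of edgeR (Benjamini-Hochberg) gave adjusted p = 0.318, 0.392 and 0.352, so 0 of 3 arms were called at 0.05. The background was 0 of 16955 (0.0%), with 2474 small RNAs at an unadjusted p under 0.05 in edgeR's test and 0 calls by DESeq2 and by limma-voom as well, and of the 418 entries of the miRNA class 69 had such an unadjusted p. By the criteria used for miRNAs in the study, a fold change of at least 1.5 with an unadjusted p no higher than 0.1, 2 of 3 arms differed, miR-200a-3p with an unadjusted p = 0.0152 and miR-429-3p with 0.0591 in edgeR's test. For miR-200b-3p the unadjusted edgeR p was 0.0896 and the fold change fell short of 1.5. The study's own table of differentially expressed miRNAs names no arm of this family. In the miRNA class 63 of 418 entries (15.1%) met these criteria, 33 of them (7.89%) with higher levels in WD mice. Leaving out 1 mouse gave 0 arms without M1N, 0 without M2W, 1 without M2N and 3 without M3W. Without M1W there were 2, miR-200a-3p and miR-200b-3p, and miR-429-3p no longer met the criteria. Without TN1, TN2 or M5W the arms were the 2 named. The median log2 fold change of the 3 arms tested was 0.69, beside 0.03 in the miRNA class and -0.01 over all small RNAs tested.

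The difference between the diets depended on which SD mice were used. miR-200a-3p averaged 17.0 CPM in the M pair (M1N and M2N) and 29.3 CPM in the TN pair (TN1 and TN2), a ratio of 1.72, and miR-429-3p averaged 3.76 and 10.8 CPM, a ratio of 2.88. For miR-200b-3p the pairs were alike, at 13.1 and 14.3 CPM, a ratio of 1.09. Set against M1N and M2N, the WD mice had log2 fold changes of 1.11 (standard error 0.26, adjusted p = 0.00633) for miR-200a-3p, 0.56 (0.33, adjusted p = 0.226) for miR-200b-3p and 1.71 (0.42, adjusted p = 0.00796) for miR-429-3p in edgeR's test. There 2 of 3 arms were called, in a comparison that called 3642 of 17495 small RNAs (20.8%). Set against TN1 and TN2, the log2 fold changes were 0.34 (standard error 0.21), 0.45 (0.32) and 0.22 (0.34), each with adjusted p = 1.0 in edgeR's test, and 0 of 3 arms were called where 23 of 17168 small RNAs (0.134%) were. In that comparison 650 small RNAs had an unadjusted p under 0.05, none of them a tested arm of the family. Both comparisons share the WD mice. The median log2 fold change of the miRNA class was -0.14 against M1N and M2N and 0.19 against TN1 and TN2. Since all TN mice were on the standard diet, the diets cannot be compared among them.

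**Figure D2:**
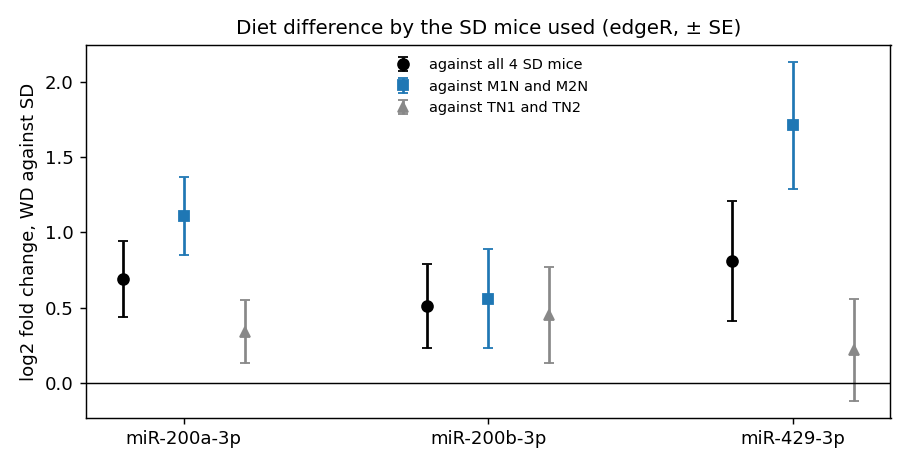
Log2 fold change of WD against SD mice (vertical axis) with its standard error from edgeR for the 3 arms tested, against all 4 SD mice (black circles), M1N and M2N (blue squares) and TN1 and TN2 (grey triangles). miR-429-3p moves from 1.71 to 0.22 with the pair of SD mice, and miR-200b-3p from 0.56 to 0.45.

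The other 3 arms did not pass the filter and were not part of the test reported above; with no filter on low counts edgeR called 0 of the 6 arms. miR-200b-5p had 4, 9, 3 and 4 counts in M1N, M2N, TN1 and TN2, and 0, 13, 7 and 3 counts in M1W, M2W, M3W and M5W. miR-141-3p had 2, 3, 9 and 2 counts in the SD mice and 1, 3, 1 and 3 counts in the WD mice, in the same order. miR-200c-3p had 9, 1, 4 and 1 counts in the SD mice and 1, 5, 0 and 1 counts in the WD mice. Most of these values lay at or near the floor, single mice supplied much of each total (TN1 for miR-141-3p, M1N for miR-200c-3p), and the groups overlapped in each arm. The count of 0 for miR-200b-5p in M1W allows up to 0.986 CPM, and that for miR-200c-3p in M3W up to 1.38 CPM. Exact permutation tests of log2 CPM (two-sided) gave p = 0.971 for miR-200b-5p, 0.343 for miR-141-3p and 0.4 for miR-200c-3p, and a difference between the diets was not detectable at this depth.

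Summed over its 4 listed arms, the chromosome 4 cluster had 27.1, 45.0, 51.0 and 60.7 CPM in M1N, M2N, TN1 and TN2, and 60.2, 107 and 57.6 CPM in M1W, M2W and M3W, with 62.2 CPM in M5W. The groups overlapped, since TN2 was above M1W and M3W. The means were 45.9 ± 14.1 CPM in SD mice (n = 4) and 71.9 ± 23.8 CPM in WD mice (n = 4), a log2 ratio of 0.65, with a mean of 36.0 CPM in the M pair of SD mice and of 55.9 CPM in the TN pair. The 2 arms of the chromosome 6 cluster summed to 3.77, 1.28, 4.1 and 1.39 CPM in the SD mice and to 0.657, 3.51, 0.461 and 1.24 CPM in the WD mice. Here the means were 2.63 ± 1.51 CPM (n = 4) and 1.47 ± 1.4 CPM (n = 4), a log2 ratio of -0.84 that rests on 31 and 15 reads, and the groups overlapped widely. Without M2W the log2 ratio was -1.74 for this cluster and 0.39 for that on chromosome 4.

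Within a mouse, the chromosome 6 arms took 12.2%, 2.76%, 7.43% and 2.24% of the family's reads in M1N, M2N, TN1 and TN2, and 1.08%, 3.16%, 0.794% and 1.96% in M1W, M2W, M3W and M5W. M1N and TN1 were high, and the other SD mice lay among the WD mice. The 95% Wilson interval was 6.96% to 20.6% in M1N, with 11 of its reads from chromosome 6, and 0.14% to 4.36% in M3W, with 1 read. Intervals and floors describe counting error alone, because PCR copies of a molecule are counted as separate reads.

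By seed, the arms with AACACUG summed to 24.5 ± 8.71 CPM in SD mice (n = 4) and 37.9 ± 7.85 CPM in WD mice (n = 4), nearly all of it miR-200a-3p. Those with AAUACUG summed to 22.3 ± 4.85 CPM in SD mice (n = 4) and 33.0 ± 15.3 CPM in WD mice (n = 4), where M2W reached 55.7 CPM. On either diet the sums of these seeds differed by less than their standard deviations.

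The read shares of the 3p arms of the chromosome 4 cluster varied between mice. miR-200b-3p made up 41.3%, 37.1%, 25.8% and 26.8% of their reads in M1N, M2N, TN1 and TN2, and 23.0%, 32.3%, 27.1% and 27.9% in M1W, M2W, M3W and M5W. miR-429-3p made up 10.7%, 11.4%, 20.1% and 19.7% in the SD mice and 21.3%, 20.3%, 13.6% and 15.7% in the WD mice. M1N and M2N thus had the highest shares of miR-200b-3p and the lowest of miR-429-3p, while TN1 and TN2 lay within the WD range for both. The share of miR-200a-3p was 51.8% ± 2.76 in SD mice (n = 4) and 54.7% ± 5.11 in WD mice (n = 4). Centred on their own means, the log2 CPM profiles of miR-200a-3p and miR-429-3p differed by a root mean square of 0.32 over the 8 mice, those of miR-200a-3p and miR-200b-3p by 0.34, and those of miR-200b-3p and miR-429-3p, which share a seed, by 0.54.

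Both arms are listed for the Mir200b hairpin alone. Its 3p arm took 88.6%, 84.5%, 93.2% and 89.5% of the reads in M1N, M2N, TN1 and TN2, and 100%, 85.2%, 82.1% and 94.8% in M1W, M2W, M3W and M5W. The groups overlapped, with 88.9% ± 3.57 in SD mice (n = 4) and 90.5% ± 8.33 in WD mice (n = 4), on 359 reads of the 3p arm and 43 of the 5p arm in all. In M1W, where 42 reads were counted on the 3p arm and 0 on the other, the 95% Wilson interval was 91.6% to 100%.

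Because the arms of a cluster lie within a shared annotated transcript, the starts of Gm13648 and Gm15884 were searched for the E-box bound by ZEB factors, spelled CAGGTG or, on the other strand, CACCTG, which are reverse complements and special cases of the general E-box CANNTG. The windows run from 250 bases before to 50 after the annotated start, on the minus strand of NCBIM37, with the motif in capitals. Gm13648, chr4:155433862-155434161, holds 2, at -118 and -72 from the start:
Gm13648: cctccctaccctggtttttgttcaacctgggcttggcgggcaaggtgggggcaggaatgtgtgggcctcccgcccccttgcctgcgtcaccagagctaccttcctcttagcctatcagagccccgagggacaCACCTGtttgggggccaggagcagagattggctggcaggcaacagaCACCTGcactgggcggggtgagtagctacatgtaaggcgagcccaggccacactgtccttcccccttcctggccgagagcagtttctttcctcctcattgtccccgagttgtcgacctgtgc
Gm15884, chr6:124668800-124669099, holds 3, at -58, -26 and -1:
Gm15884: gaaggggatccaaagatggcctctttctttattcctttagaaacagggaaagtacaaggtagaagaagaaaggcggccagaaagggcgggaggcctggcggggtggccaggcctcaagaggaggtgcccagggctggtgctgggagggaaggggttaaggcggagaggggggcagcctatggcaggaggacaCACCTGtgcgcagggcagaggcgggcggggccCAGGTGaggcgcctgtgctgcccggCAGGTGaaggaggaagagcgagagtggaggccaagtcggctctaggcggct
Of 32851 promoter windows of 300 bases in RefSeq (GRCm38.p6), 20.2% hold at least 1 such motif, 2.88% at least 2 and 0.365% at least 3. The matches describe the sequence only, binding was not measured, and the start of Ttll10 was not searched.

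Other miRNAs known from epithelia were compared with the family by count and median. Of 10 listed arms of miR-203, miR-205, miR-375, miR-31, miR-192 and miR-194, 8 were tested, 0 were called and 0 met the study's criteria, 2 had a positive and 6 a negative log2 fold change, and their median was -0.31. The share of the miRNA class that met the criteria was 15.1%, and the difference of the list from the class or from the family was not tested. Against the M pair miR-194-5p had a log2 fold change of 0.70 and miR-203-3p of 0.07, whereas it was -0.79 for miR-192-5p (adjusted p = 0.0144 in edgeR's test), -0.76 for miR-192-3p, -1.07 for miR-203-5p, -0.53 for miR-31-5p, -0.37 for miR-31-3p, -0.47 for miR-205-5p and -0.10 for miR-375-3p. Against the TN pair it was 0.37 for miR-203-3p, the most abundant arm, 0.21 for miR-192-3p, 0.07 for miR-194-5p, -0.03 for miR-375-3p, -0.06 for miR-192-5p, -0.12 for miR-31-3p and -0.23 for miR-31-5p. The summed level of the list was 1062.1, 916, 807 and 728 CPM in M1N, M2N, TN1 and TN2, and 739, 1081.8, 828 and 758 CPM in M1W, M2W, M3W and M5W. It was led by miR-203-3p, a miRNA of skin and other stratified epithelia, at 443 CPM, a level above that of every arm of the family. M2W and M1N were the highest mice of this list, and M2W was also the highest in miR-200a-3p, miR-200b-3p and miR-429-3p. miR-203, miR-205 and miR-375 alone, taken as markers of epithelium such as that of the epididymis, had 4 listed arms with 0 of 3 tested arms past the criteria. They summed to 591, 544, 490 and 453 CPM in M1N, M2N, TN1 and TN2 and to 516, 742, 529 and 527 CPM in M1W, M2W, M3W and M5W, none of the 4 arms at 0 in any mouse.

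The tissue label was checked on markers of the testis. Germ cell miRNAs (miR-34b, miR-34c, miR-449a, miR-449c, miR-741, miR-871, miR-880 and miR-883a) summed to 19400.3 ± 2238.8 CPM in SD mice (n = 4) and 18587.7 ± 2059.1 CPM in WD mice (n = 4), with 1 of 15 arms tested, miR-449a-5p, lower in WD mice by the criteria. miR-202, a marker of Sertoli cells, summed to 3609.1, 4081, 4193.1 and 4033.8 CPM in M1N, M2N, TN1 and TN2, and to 4186.9, 7021.2, 4330.8 and 4487.4 CPM in M1W, M2W, M3W and M5W, with 0 of 2 arms past the criteria. M2W thus stood above the other mice for miR-202 as it did for the chromosome 4 cluster.

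Some arms of the testis lists differed between the pairs of SD mice as well, with miR-449a-5p at 2299.3 and 1639.5 CPM in the M pair and 1081.7 and 940 CPM in the TN pair, and miR-34b-3p at 1746.5 and 1659.9 CPM against 1038.9 and 1006.5 CPM. In the most abundant germ cell arms the pairs overlapped. miR-34c-5p had 8432.5 and 7575.6 CPM against 8348.0 and 6901.8 CPM, and miR-34b-5p had 5293.9 and 4354.5 CPM against 5677.1 and 4346.9 CPM. Other germ cell arms were lower in the M pair, as miR-200a-3p was: miR-741-5p had 47.0 and 67.9 CPM against 98.9 and 81.5 CPM, and miR-449c-5p had 51.7 and 56.4 CPM against 86.0 and 68.6 CPM, with adjusted p = 0.00972 and 0.028 for WD against the M pair in edgeR's test. The log2 fold change of miR-202-5p, the more abundant arm, was 0.42 against the M pair and 0.29 against the TN pair, and that of miR-202-3p was -0.73 and 0.19. These arms were named after their values were seen.

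Markers of blood, of the vessel wall and of leukocytes also differed between these pairs. The blood miRNAs miR-451 and miR-144 summed to 71.6, 40.2, 151 and 116 CPM in M1N, M2N, TN1 and TN2, and to 76.9, 138, 113 and 76.5 CPM in M1W, M2W, M3W and M5W, led by miR-451, with 0 of 2 arms past the criteria and miR-486 not listed. Endothelial and smooth muscle miRNAs (miR-126, miR-143 and miR-145) summed to 6265.5, 6400.9, 4862.8 and 4397.9 CPM in the SD mice and to 4498.9, 8399.1, 5900.2 and 4570.2 CPM in the WD mice, led by miR-145-5p, with 0 of 5 arms past the criteria. Leukocyte miRNAs (miR-142, miR-223 and miR-150) summed to 510, 402, 240 and 221 CPM in the SD mice and to 285 ± 109 CPM in the WD mice (n = 4), where M2W had 443 CPM, led by miR-223-3p, with miR-142-3p higher and miR-150-5p lower by the criteria among 4 arms tested. The blood sum, carried by miR-451, was lower in M1N and M2N than in TN1 and TN2, as the chromosome 4 cluster was, and the sums of the other 2 lists were higher. In the blood list the pairs overlapped for miR-144-5p, with 5.14 and 1.91 CPM in the M pair and 2.21 and 1.39 CPM in the TN pair. Only M1N was high there, and the other SD mice were near the floor. Within the other lists miR-143-3p and miR-142-3p went against the sum, with 165 and 296 CPM in the M pair and 355 and 402 CPM in the TN pair for miR-143-3p, and 6.51 and 13.7 CPM against 15.4 and 16.7 CPM for miR-142-3p. For miR-143-5p, near the floor, the pairs overlapped, with 1.71 and 2.55 CPM against 2.52 and 2.78 CPM. Of striated muscle, miR-1a and miR-133a summed to 45.6 ± 4.33 CPM in SD mice (n = 4) and 45.5 ± 11.4 CPM in WD mice (n = 4), with 0 of 2 arms past the criteria and miR-206 not listed. The part of these cell types in the levels of the family was not tested.

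The mature miRNAs outside the family whose log2 CPM profiles over the 8 mice came nearest to miR-200a-3p, of 363 tested, were miR-878-5p and miR-142-3p, each with a root mean square difference of 0.16, and miR-143-3p with 0.18. The median over all 363 was 0.66, and the spread of miR-200a-3p itself was 0.53. miR-878-5p had 17.1, 24.2, 32.4 and 45.4 CPM in M1N, M2N, TN1 and TN2, and 50.6, 57.4, 49.3 and 45.4 CPM in M1W, M2W, M3W and M5W. In all 3, as in miR-200a-3p, M1N was the lowest mouse, M2N the next and M2W the highest. For miR-141-3p, chosen as the arm of the chromosome 6 cluster with the higher mean although miR-200c-3p was within its spread, the nearest were miR-20b-5p with 0.34, miR-465c-5p with 0.41 and miR-31-5p with 0.43, against a median of 0.63 and a spread of 0.50 in miR-141-3p itself, a weak likeness in an arm of 24 reads in all.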

How the data were processed

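Small RNA of the testis was sequenced on a SOLiD instrument in 4 SD and 4 WD mice. The authors trimmed adaptors, aligned with Bowtie to mm9 with up to 2 mismatches, annotated small RNAs and deposited raw counts, 1 column per mouse. The Bowtie version, the counting program and the role of DESeq, which the submitters' processing notes also name, are not given in the sources used here. The members and lists were chosen with earlier results of these data known.

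The test was edgeR 4.0.16 in R 4.3.3, with TMM factors, column totals as library sizes, a filter at a count of 10 and a total of 15, and the quasi-likelihood test of diet, two-sided, with Benjamini-Hochberg adjustment over all small RNAs tested. Standard errors were derived from the F statistic. The exact permutation test used log2 CPM with a prior count of 2 (SciPy 1.17.1). Alternatives were DESeq2 1.42.0, limma-voom 3.58.1, other scalings, filters and thresholds, each pair of SD mice, a block on the numbers shared by M1N and M1W and by M2N and M2W, and each mouse left out. The test was checked on simulated counts. Each library was counted as a sample of its own, because the labels give each its own name. Counts of any 2 mice differed beyond sampling noise (chi-square divided by its degrees of freedom 2.42 to 22.2 over 28 pairs), which shows only that no column copies another. Named miRNAs were all family arms, the arms of the epithelial and cell type lists, and for the most abundant arm of each cluster the 3 tested mature miRNAs with the nearest centred profile. Positions are from NCBIM37 with GENCODE annotation, and figures were drawn with matplotlib 3.10.9.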

Additional observations from a re-analysis of the deposited data

Results flagged for a closer look

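Among 20 sets of 4 mice examined, 5 held a mouse far from the other 3, where chance gives about 1. M2W stood apart among WD mice in miR-200a-3p, with 48.2 CPM against 32.3 to 34.5 CPM in the others, in miR-200c-3p, with 2.19 CPM against 0 to 0.329 CPM, and in the summed chromosome 4 cluster, with 107 CPM against 57.6 to 62.2 CPM. The sum contains miR-200a-3p, so these are not separate observations, and the value of miR-200c-3p rests on 5 reads. M2W also had the highest sums of miR-202, of the epithelial lists and of the endothelial and smooth muscle list, and the part of this in its family levels was not tested. The miRNA class as a whole took 12.7% of the counts of M2W against 9.23% to 10.7% in the other 7 mice. As a share of miRNA class reads miR-200a-3p had 0.0378% in M2W against 0.0312% to 0.0366% in the other WD mice, close to them. On that scale M2W was still above the other WD mice in the chromosome 4 cluster, with 0.0843% against 0.0557% to 0.0659%. The same held for miR-200b-3p, with 0.0258% against 0.0143% to 0.0181%, and for miR-200c-3p, with 0.00172% against 0% to 0.000359%. In miR-141-3p TN1 stood apart among SD mice with 2.84 CPM against 0.685 to 0.957 CPM, on 9 reads. The total count of TN2, 2064562, was far lower than in its group, where the rest had 3101032 to 3253798.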

How the results depend on the processing

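The count of arms called, 0 with all mice, was 0 in 17 of 20 alternatives and 2 against M1N and M2N alone, 2 with the replicate block on the M1 and M2 mice and 2 in the same 4 mice with no replicate block (miR-200a-3p and miR-429-3p each time). In these 4 mice 1176 of 17036 small RNAs were called with the block and 1044 of 17036 without it. With the block edgeR's adjusted p was 0.00574 for miR-200a-3p and 0.000462 for miR-429-3p, and without it 0.0228 and 0.0106. The differences between M1 and M2 mice correlated at r = -0.057 between diets, across 16955 small RNAs that are not independent replicates. No deviation shared by mice of the same number was seen, but a single such correlation cannot exclude that the numbers pair the mice. The count past the study's criteria, 2 with all mice, was 1 with TMM within the miRNA class, 1 with at least 10 counts in every mouse, where miR-429-3p was not tested, 1 at a p of 0.05 or less, 0 against TN1 and TN2 alone, and 0 to 3 with 1 mouse left out. It was 3 with the replicate block, 3 with no replicate block in the same mice and 3 with no fold change threshold. Of the miRNA class, 122 of 437 entries met the criteria with the block and 123 of 437 without it in the same mice. The class count was 53 of 413 with TMM within the class and 39 of 325 with at least 10 counts in every mouse. Against TN1 and TN2 alone it was 66 of 442. With 1 mouse left out it ran from 51 of 426 without M1N to 100 of 436 without M2W. For the other thresholds on p and fold change the class count is not given here. All log2 fold changes of the 3 tested arms stayed positive, from 0.34 to 1.29 for miR-200a-3p, from 0.16 to 0.80 for miR-200b-3p and from 0.22 to 2.15 for miR-429-3p, with adjusted p in edgeR, DESeq2 or limma of 0.00574 to 1.0, 0.179 to 1.0 and 0.000462 to 1.0. The log2 ratio of the chromosome 4 cluster lay between 0.36 and 1.00 and that of the chromosome 6 cluster between -1.74 and -0.55 over 14 alternatives each. The difference in the 3p share of Mir200b, 1.6 percentage points, lay between -1.56 and 4.42. The cause of these shifts was not tested. Depth limits the chromosome 6 cluster, with 46 reads in all.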
